A study of Mus musculus with 30 samples.

Results

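The transcripts of 45 DNA repair and damage checkpoint genes were followed through a mouse model of oral squamous cell carcinoma. The genes were taken by symbol, and each of the 45 matched 1 row of a deposited table of 55487 Ensembl genes. They comprised 11 genes of nucleotide excision repair, 6 of translesion synthesis, 9 of homologous recombination, 5 of the Fanconi anemia pathway, 6 of the damage checkpoint, 5 of base excision and single-strand break repair, 2 of mismatch repair and 1 of direct reversal. All 45 had enough counts to be tested, among 17638 genes in all.

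RNA was sequenced from 30 samples of male C57BL/6J mice, which the labels sort by pathology into normal tissue (n = 3), hyperplasia (n = 8), dysplasia (n = 7), carcinoma in situ (n = 6) and invasive carcinoma (n = 6). No genetic modification is labelled. The labels put 1 protocol on every sample, normal tissue included: the carcinogen 4-nitroquinoline-1-oxide (4NQO) in drinking water at 100 ug/mL for 10 weeks, begun at 6 weeks of age. Whether the mice with normal tissue took the carcinogen is not stated, and neither is whether samples came from separate animals, so the p-values speak only to sample-to-sample spread, which may be technical. Sample codes begin with D (normal tissue), A (hyperplasia), B (dysplasia) or C (the carcinomas), so a batch that follows the letters cannot be told apart from stage outside the comparison of the carcinoma stages.

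4NQO is converted in cells to a reactive product that attaches bulky groups to DNA bases, mainly guanine, and also raises oxidative damage. Nucleotide excision repair cuts such bulky lesions out, translesion polymerases copy past those that remain at a replication fork, and homologous recombination and the Fanconi anemia pathway restore broken or crosslinked forks. Checkpoint kinases hold the cell cycle meanwhile, and many genes of the recombination, Fanconi, mismatch repair and checkpoint groups are known to be transcribed mainly in cells that are replicating their DNA.

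Total counts ran from 17725604 to 28023098 per sample. Keratinocyte markers, the defining genes of oral epithelium, were abundant in every group, with a summed mean of 53810 CPM (counts scaled to a common total) in normal tissue and 65920 CPM in invasive carcinoma. Of the 14, 3 were called higher in hyperplasia, 8 in dysplasia and 11 at each carcinoma stage, and of 6 endothelial markers 5 and 6 were called lower at the carcinoma stages; their part in the results below was not tested. Skeletal muscle markers were abundant too and fell from a summed mean of 65050 ± 11760 CPM (SD, n = 3) in normal tissue to 32760 ± 8586 CPM (n = 6) in invasive carcinoma, where 16 of 18 were called lower. The summed level of 21 proliferation genes, none of them among the 45, was 492 ± 84 CPM in normal tissue, 749 ± 73 at the hyperplasia stage, 671 ± 62 with dysplasia, then 764 ± 133 in carcinoma in situ and 829 ± 100 for invasive samples. Its 21 genes were called higher than in normal tissue in 16, 7, 19 and 19 cases at these 4 stages. The summed T cell markers stood at 4.97 CPM in normal tissue and between 11.8 and 15.9 CPM in the other groups, and the neutrophil markers at 7.59 CPM in normal tissue and 4036 CPM in invasive carcinoma. Bulk RNA cannot tell fewer cells of a type from less RNA per cell.

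Most repair genes that differed from normal tissue were higher, and 16 of them were so by the hyperplasia stage. Hyperplasia had 16 of the 45 called higher (35.6%) and 1 lower, at an adjusted p under 0.05 in edgeR's quasi-likelihood test, against 8.22% of all 17638 genes called higher and 6.07% called lower. Dysplasia had 13 higher and 1 lower, beside 13.3% and 12.4% of all genes. Carcinoma in situ had 21 higher and 2 lower, beside 19.4% and 18.2% of all genes, and invasive carcinoma had 23 higher and 3 lower, beside 23.4% and 22.7%. The median log2 fold change of the 45 against normal tissue was 0.22, 0.26, 0.29 and 0.34 at the successive stages, while that of all genes lay between 0.01 and 0.02. Across the 5 stages in 1 test, 27 of the 45 (60.0%) differed, beside 53.2% of all genes. These 4 comparisons share the 3 normal samples.

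By gene, 10 of the 45 were higher than in normal tissue at all 4 stages: Brca1, Rad54l, Fanca, Fancd2, Fanci, Chek1, Topbp1, Msh6, Exo1 and Ercc6. Of these, Fanca, Chek1, Msh6 and Exo1 held all 4 calls without each sample in turn, and Ercc6 lost its hyperplasia call in 7 of 11 such fits. A further 16 were higher at 1 to 3 stages and lower at none. Xpa, Xrcc3 and Parp1 were called lower in at least 1 comparison and never higher, and Rev1 was called in both directions. The other 15 were not called against normal tissue at any stage. Leaving out normal sample D02 lowered the number of members called from 17 to 9 in hyperplasia, from 14 to 5 in dysplasia and from 23 to 13 in carcinoma in situ. The share of all genes called went from 14.3% to 5.14%, from 25.7% to 7.11% and from 37.6% to 23.5%.

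The counts were also recomputed with tissue scores in the fit. With the skeletal muscle score, the members called numbered 13 for hyperplasia, all among the 17, 2 for dysplasia, 8 for carcinoma in situ and 7 for invasive carcinoma, and all-gene calls went from 2519, 4540, 6630 and 8127 to 1778, 616, 1903 and 1567. With the proliferation score in the fit, the members called numbered 2 in hyperplasia, 3 in dysplasia and 0 in each carcinoma stage. All-gene calls in that fit were 605, 779, 385 and 238. At an unadjusted p under 0.05 in edgeR's test, that fit left 7 of the 45 in carcinoma in situ and 5 at the invasive stage. Among all 17638 tested genes, it left 2975 and 2788 at that threshold. The proliferation score itself differed between stages, as its sums above show.

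**Figure D1:**
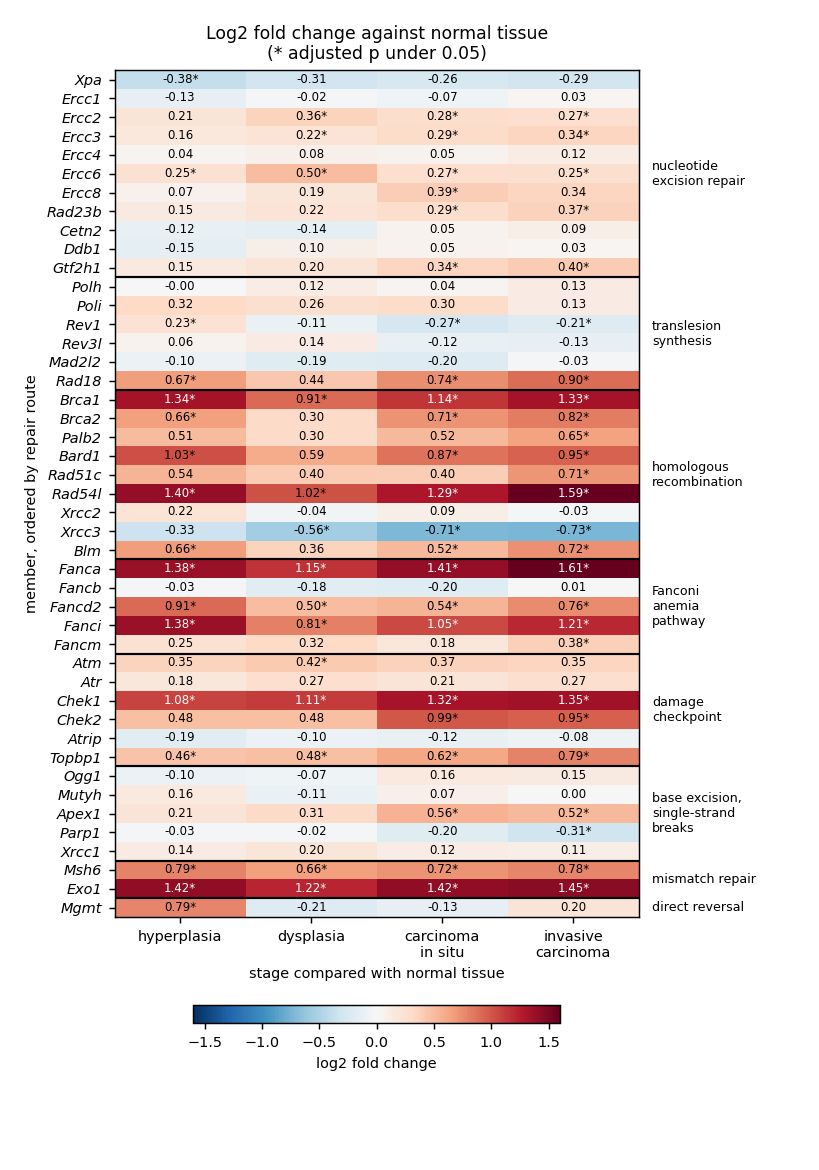
Log2 fold change of each of the 45 repair genes (rows, ordered by route) against normal tissue at 4 stages (columns), from edgeR's fit of all 30 samples; asterisks mark an adjusted p under 0.05. Exo1, Fanca and Rad54l carry the largest increases, up to 1.61 for Fanca in invasive carcinoma, and Xrcc3 the largest decrease, -0.73.

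Promoters were examined because genes of DNA replication and repair are often bound near their start site by E2F factors, which switch on the genes of the replication phase of the cell cycle. The RefSeq promoter table for GRCm38.p6, which covers 250 bases before to 50 bases after a start site, held 39 of the 45 genes. An E2F-type word was any of 4, searched on both strands: TTCCCGC was the first word, a second word read TTCGCGC, another was spelled TTGGCGC, and the last word searched was TTGCCGC. Words may overlap one another. At least 1 occurred in 18 of the 39 promoters (46.2%), against 2936 of 27025 genes in the table (10.9%). The 39 genes all passed the expression filter, whereas the 27025 were not limited to the 17638 tested genes. The sets were not matched for expression or base composition, so whether the difference is particular to repair genes was not tested. The same holds for the other words below. By route, matches were present in 5 of 8 promoters of homologous recombination, 3 of 4 of the Fanconi pathway, 4 of 6 of the checkpoint, 3 of 10 of nucleotide excision repair, 1 of 4 of translesion synthesis and 1 of 5 of base excision repair. Other words were searched on both strands too. TTTGAA or TTCGAA occurred in 3 of the 39 promoters (7.7%), against 21.7% of genes in the table. CCAAT occurred in 23 of the 39 (59.0%), against 41.1%. A match is a description of the letters and not a bound site.

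The promoters of the 4 matched genes with the smallest p across the 5 stages are shown 5′ to 3′ on the gene's strand, with the E2F-type letters in capitals. Chek2 encodes a checkpoint kinase activated by ATM, Fanci a subunit of the pair of proteins that marks a crosslinked fork, Brca1 the ubiquitin ligase subunit that steers breaks into recombination, and Topbp1 the scaffold that activates ATR. In Chek2 (chr5:110839733-110840032, plus strand) and Topbp1 (chr9:103305077-103305376, plus strand) the match lies upstream of the start site, and in Fanci (chr7:79392088-79392387, plus strand) and Brca1 (chr11:101551906-101552205, minus strand) just after it. Topbp1 holds 2 matches that overlap on opposite strands.
Chek2: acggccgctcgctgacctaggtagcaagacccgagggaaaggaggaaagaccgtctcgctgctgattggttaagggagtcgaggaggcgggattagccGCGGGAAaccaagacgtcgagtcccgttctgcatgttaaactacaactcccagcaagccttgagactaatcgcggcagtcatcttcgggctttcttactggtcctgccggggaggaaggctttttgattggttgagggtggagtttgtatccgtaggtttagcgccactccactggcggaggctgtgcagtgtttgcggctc
Fanci: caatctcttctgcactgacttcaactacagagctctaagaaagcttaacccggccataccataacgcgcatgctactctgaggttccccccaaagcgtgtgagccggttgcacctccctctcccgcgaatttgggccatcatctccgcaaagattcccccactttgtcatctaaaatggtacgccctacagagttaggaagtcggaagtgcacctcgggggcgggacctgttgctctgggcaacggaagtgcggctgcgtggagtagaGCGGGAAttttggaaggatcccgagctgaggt
Brca1: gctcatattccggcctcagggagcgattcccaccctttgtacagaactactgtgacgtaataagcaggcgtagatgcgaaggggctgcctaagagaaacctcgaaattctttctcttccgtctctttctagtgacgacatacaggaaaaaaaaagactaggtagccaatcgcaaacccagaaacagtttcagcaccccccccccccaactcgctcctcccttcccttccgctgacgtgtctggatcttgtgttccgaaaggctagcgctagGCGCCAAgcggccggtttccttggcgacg
Topbp1: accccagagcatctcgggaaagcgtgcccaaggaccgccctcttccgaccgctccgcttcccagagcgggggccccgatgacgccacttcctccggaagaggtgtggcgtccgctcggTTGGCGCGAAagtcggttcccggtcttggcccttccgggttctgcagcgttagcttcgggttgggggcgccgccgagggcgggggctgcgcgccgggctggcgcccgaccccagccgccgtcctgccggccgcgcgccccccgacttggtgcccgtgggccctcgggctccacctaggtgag
Chek2 and Fanci hold the same E2F-type word, and the distance of the match from the start site differs among the 4.

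Nucleotide excision repair, the route that removes the bulky lesions 4NQO makes, changed by small steps. Of its 11 genes, 1 was called higher and 1 lower in hyperplasia, 3 higher in dysplasia, 6 higher in carcinoma in situ and 5 higher in invasive carcinoma. Of all genes, 8.22%, 13.3%, 19.4% and 23.4% were called higher at these stages, and 6.07%, 12.4%, 18.2% and 22.7% lower. These shares also stand beside the counts against normal tissue given for each route below. The median log2 fold change of the 11 was 0.07, 0.19, 0.27 and 0.25 at these stages, and no gene passed 0.50.

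Ercc6, which encodes CSB, the ATPase that brings the repair machinery to stalled RNA polymerase, was highest in dysplasia. Its level was 17.3, 16.2 and 16.5 CPM in the 3 normal samples. It ran from 18.02 to 22 CPM (median 19.5) in hyperplasia and from 20.7 to 27.4 CPM (median 23.8) in dysplasia. All 27 other samples lay above the highest normal one. Ercc6 ran from 18.7 to 21.0 CPM (median 20.5) in carcinoma in situ and from 17.7 to 21.98 CPM (median 19.9) in invasive carcinoma. The log2 fold change against normal tissue was 0.50 ± 0.08 (SE) in dysplasia (adjusted p = 0.00026) and 0.25 ± 0.08 in invasive carcinoma (adjusted p = 0.015). Dysplasia was above hyperplasia by 0.25 ± 0.06 (adjusted p = 0.014) with overlapping samples, and the later decrease to carcinoma in situ, by -0.23 ± 0.07 (adjusted p = 0.038), lost its call without any 1 of 11 of the 13 samples. The dysplasia call against normal tissue held without each sample in turn, whereas the carcinoma calls were lost without D02 or D03.

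Ercc3, the XPB helicase of the repair and transcription factor TFIIH, had a higher mean at each successive stage. It was called against normal tissue from dysplasia on. The normal samples had 31.6, 31.9 and 30.3 CPM. Hyperplasia ran from 33.0 to 37.0 CPM (median 34.8), dysplasia from 33.7 to 37.8 (median 36.4), carcinoma in situ from 32.6 to 41.1 (median 39.4) and invasive carcinoma from 36.8 to 42.5 (median 39.5). Every one of the 27 other samples exceeded the normal ones, although the lowest, C04 at 32.6 CPM, came close. Ercc3 had a log2 fold change of 0.16 ± 0.06 in hyperplasia (adjusted p = 0.067), 0.22 ± 0.06 in dysplasia (adjusted p = 0.011), 0.29 ± 0.06 in carcinoma in situ (adjusted p = 0.0010) and 0.34 ± 0.06 in invasive carcinoma (adjusted p = 0.00016). Only the dysplasia call depended on single samples, D02 and D03.

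Gtf2h1, another TFIIH subunit, and Rad23b, a partner of the damage sensor XPC, had means that were higher at each successive stage. Gtf2h1 stood at 25.7, 26.9 and 29.1 CPM in normal tissue, at 26.4 to 32.8 CPM (median 30.9) in hyperplasia and at 28.0 to 33.4 CPM (median 32.1) in dysplasia. It reached 29.2 to 42.2 CPM (median 33.5) in carcinoma in situ and 33.3 to 40.6 CPM (median 36.0) in invasive carcinoma. All 12 carcinoma samples exceeded the normal ones, and the log2 fold change of Gtf2h1 was 0.34 ± 0.10 in carcinoma in situ (adjusted p = 0.0072) and 0.40 ± 0.10 in invasive carcinoma (adjusted p = 0.0014). Rad23b averaged 179 ± 5.6 CPM in normal tissue and 232 ± 15 CPM in invasive carcinoma, a log2 fold change of 0.37 ± 0.09 (adjusted p = 0.0021).

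The other members of the route moved less or at single stages. Ercc2, the XPD helicase of TFIIH, was called higher from dysplasia on. Its log2 fold change was 0.36 ± 0.10 in dysplasia (adjusted p = 0.0087) and 0.27 ± 0.10 in invasive carcinoma (adjusted p = 0.026). Both of these calls were lost without D02 and the latter also without D03. Ercc8, which encodes CSA, was called against normal tissue in carcinoma in situ only, at 0.39 ± 0.15 (adjusted p = 0.035), and 5 single samples each decided that call. Xpa, the scaffold that positions the incision enzymes, averaged 10.8 ± 1.4 CPM in normal tissue and 8.28 ± 0.88 CPM in hyperplasia. The log2 fold change of Xpa there was -0.38 ± 0.12 (adjusted p = 0.029), with all 8 hyperplasia samples below the 3 normal ones, but the call was lost without D01 or D02. Ddb1, an adaptor of the complex that senses damage in chromatin, was not called against normal tissue, and stood 0.25 ± 0.07 higher in dysplasia than in hyperplasia (adjusted p = 0.029), a call lost without any 1 of 4 samples. Ercc1, Ercc4 and Cetn2 were not called in any comparison.

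In translesion synthesis, Rev1 and Rad18 were called against normal tissue. Of 6 genes, 2 were called higher in hyperplasia and 1 in each direction at both carcinoma stages. Of all genes, 18.2% to 23.4% were called in each direction at the carcinoma stages. In dysplasia edgeR's test called 0 of the 6 against normal tissue, and 1 had an unadjusted p under 0.05. Polh, Poli and Mad2l2 were not called in any comparison between stages; Polh encodes the polymerase mutated in the variant form of xeroderma pigmentosum.

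Rev1, the scaffold polymerase on which the other translesion enzymes assemble, was highest in hyperplasia and lowest in the carcinoma stages. The normal samples had 25.4, 27.1 and 25.6 CPM. Hyperplasia ran from 28.7 to 32.4 CPM (median 30.5), and all 8 of its samples lay above all 22 others, the highest of which was B04 at 27.2 CPM. Dysplasia ran from 22.1 to 27.2 CPM (median 23.7), carcinoma in situ from 19.4 to 24.8 (median 21.4) and invasive carcinoma from 20.0 to 24.7 (median 22.9). The 12 carcinoma samples all lay below the 3 normal ones. Rev1 had a log2 fold change of 0.23 ± 0.07 from normal tissue to hyperplasia (adjusted p = 0.040), a call that 8 of 11 single samples decide. From hyperplasia to dysplasia it fell by 0.34 ± 0.06 (adjusted p = 0.00057), and invasive carcinoma was below hyperplasia by -0.43 ± 0.06 (adjusted p = 8.8e-06). Both of those calls held without each sample in turn. Against normal tissue Rev1 stood at -0.27 for carcinoma in situ, a call lost without D02, and -0.21 for invasive carcinoma, a call lost without any 1 of 5 samples. Of the exonic length of Rev1, 26.6% overlaps Eif5b on the opposite strand, and the strand setting of the counting is not given in the sources used here.

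Rad18, the ubiquitin ligase that recruits translesion polymerases to the sliding clamp, had 5.31, 4.50 and 5.10 CPM in normal tissue. It ran from 6.39 to 9.46 CPM (median 7.78) in hyperplasia, from 5.46 to 7.94 (median 7.06) in dysplasia, from 4.89 to 10.7 (median 8.62) in carcinoma in situ and from 5.46 to 11.4 (median 10.4) in invasive carcinoma. All 8 hyperplasia and 6 invasive samples lay above the normal ones, while 1 sample of carcinoma in situ lay within their range. Against normal tissue, Rad18 had a log2 fold change of 0.67 ± 0.21 in hyperplasia (adjusted p = 0.033) and 0.90 ± 0.22 in invasive carcinoma (adjusted p = 0.0016); the former call was lost without any 1 of 5 samples and the latter held without each.

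Rev3l, the catalytic subunit of the polymerase that extends from lesions, was 34.1, 32.9 and 32.9 CPM in normal tissue. It ran from 29.2 to 38.5 CPM (median 35.2) in hyperplasia, from 32.7 to 40.6 (median 36.4) in dysplasia, from 26.6 to 34.5 (median 30.8) in carcinoma in situ and from 25.6 to 35.8 (median 30.4) in invasive carcinoma. The groups of Rev3l overlapped throughout, no stage was called against normal tissue, and the decrease from dysplasia to carcinoma in situ, by -0.26 ± 0.08 (adjusted p = 0.048), was lost in 12 of 13 fits without 1 sample.

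Homologous recombination held large increases, in Brca1 and Rad54l, and 1 decrease, in Xrcc3. Of 9 genes, 5 were called higher in hyperplasia, 2 higher and 1 lower in dysplasia, 5 and 1 in carcinoma in situ and 7 and 1 in invasive carcinoma. The median log2 fold change of the 9 was 0.66, 0.36, 0.52 and 0.72 at these stages.

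Brca1 was 3.25, 2.37 and 4.66 CPM in the normal samples. It ran from 7.68 to 10.4 CPM (median 8.49) in hyperplasia, from 3.98 to 8.08 (median 6.70) in dysplasia, from 5.03 to 9.89 (median 7.36) in carcinoma in situ and from 6.42 to 12.9 (median 7.96) in invasive carcinoma. Only 1 of the 27 samples, B01 at 3.98 CPM, fell within the normal range. In edgeR's fit Brca1 had a log2 fold change of 1.34 ± 0.22 in hyperplasia (adjusted p = 0.00022), 0.91 ± 0.22 in dysplasia (adjusted p = 0.0047), 1.14 ± 0.23 in carcinoma in situ (adjusted p = 0.00051) and 1.33 ± 0.23 in invasive carcinoma (adjusted p = 7.0e-05). The dysplasia call was lost without D02 and the other 3 held without each sample.

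Rad54l, a motor protein of strand exchange, had 2.06, 1.18 and 2.59 CPM in normal tissue. Hyperplasia ran from 4.46 to 6.17 CPM (median 4.90), dysplasia from 2.66 to 4.70 (median 4.15), carcinoma in situ from 3.05 to 6.80 (median 4.84) and invasive carcinoma from 3.82 to 8.51 (median 5.46). All 27 samples lay above the normal ones, B01 being the nearest at 2.66 CPM. Rad54l had a log2 fold change of 1.40 ± 0.27 in hyperplasia (adjusted p = 0.00090) and 1.59 ± 0.28 in invasive carcinoma (adjusted p = 7.9e-05). An overlap with Lrrc41 on the opposite strand covers 15.4% of its exonic length.

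Xrcc3, which takes part in strand exchange, was called lower than in normal tissue from dysplasia on. Its level was 4.12, 4.17 and 4.97 CPM in normal tissue and ran from 2.63 to 4.37 CPM (median 3.46) in hyperplasia, with overlap. It then ran from 2.59 to 3.38 CPM (median 2.90) in dysplasia, from 1.66 to 3.42 (median 2.80) in carcinoma in situ and from 2.15 to 3.17 (median 2.69) in invasive carcinoma. All 19 samples of those 3 stages lay below the normal ones. Xrcc3 had a log2 fold change of -0.33 ± 0.18 in hyperplasia (adjusted p = 0.22), -0.56 ± 0.18 in dysplasia (adjusted p = 0.024), -0.71 ± 0.18 in carcinoma in situ (adjusted p = 0.0036) and -0.73 ± 0.18 in invasive carcinoma (adjusted p = 0.0021). The carcinoma calls held without each sample, and the dysplasia call was lost without D02 or D03.

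Genes of the BRCA1 and BRCA2 complexes were also higher. Bard1, the partner subunit of the BRCA1 ligase, had a log2 fold change of 1.03 ± 0.27 in hyperplasia (adjusted p = 0.010) and 0.95 ± 0.28 in invasive carcinoma (adjusted p = 0.0063). Brca2, a mediator of recombination, stood at 0.66 ± 0.22 (adjusted p = 0.042) and 0.82 ± 0.23 (adjusted p = 0.0048) at those stages, and the helicase gene Blm at 0.66 ± 0.18 (adjusted p = 0.013) and 0.72 ± 0.18 (adjusted p = 0.0024). The hyperplasia calls of all 3 were lost without D02, that of Brca2 also without any of 7 other samples, and the invasive call of Bard1 without D01. Palb2, which joins BRCA1 to BRCA2, and Rad51c, which works in a complex with Xrcc3, were called higher in invasive carcinoma alone, at 0.65 ± 0.21 (adjusted p = 0.014) and 0.71 ± 0.25 (adjusted p = 0.023), calls lost without D02 or D03 for Palb2 and without D01 or C12 for Rad51c. Xrcc2 was not called against normal tissue and was lower in invasive carcinoma than in hyperplasia, by -0.25 ± 0.09 (adjusted p = 0.038), a call lost in 10 of 14 fits without 1 sample.

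In the Fanconi anemia pathway, 3 of 5 genes were higher at every stage. These were Fanca, a subunit of the core ubiquitin ligase, and Fancd2 and Fanci, which form the pair of proteins it marks. In invasive carcinoma, 4 of the 5 were called higher, and the median log2 fold change was 0.91 for hyperplasia, 0.50 for dysplasia, 0.54 for carcinoma in situ and 0.76 for invasive carcinoma. A wider list, given further below, held 9 other genes of the pathway. Of these, edgeR's test called 0 in hyperplasia (1 at an unadjusted p under 0.05), 1 higher in dysplasia and 2 higher in carcinoma in situ. In invasive carcinoma 3 were called higher and 1 lower. Their median log2 fold change was 0.08, 0.07, 0.09 and 0.18 at these stages.

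Fanca was 2.17, 1.86 and 3.08 CPM in the normal samples. It ran from 5.30 to 7.39 CPM (median 6.2) in hyperplasia, from 4.36 to 6.47 (median 5.14) in dysplasia, from 3.98 to 8.31 (median 6.94) in carcinoma in situ and from 4.61 to 9.69 (median 7.44) in invasive carcinoma. No sample of the 27 overlapped the normal ones. In edgeR's fit Fanca had a log2 fold change of 1.38 ± 0.23 (adjusted p = 0.00021), 1.15 ± 0.23 (adjusted p = 0.0012), 1.41 ± 0.24 (adjusted p = 0.00011) and 1.61 ± 0.24 (adjusted p = 1.7e-05) at the 4 stages, and all 4 calls held without each sample in turn.

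Fanci had 3.25, 2.59 and 3.52 CPM in normal tissue and was highest in hyperplasia, from 5.34 to 9.70 CPM (median 8.59). It ran from 4.06 to 8.21 CPM (median 5.47) in dysplasia, from 4.07 to 7.90 (median 6.89) in carcinoma in situ and from 5.46 to 8.76 (median 7.34) in invasive carcinoma, with no overlap with normal tissue. Against normal tissue, Fanci had a log2 fold change of 1.38 ± 0.23 in hyperplasia (adjusted p = 0.00019) and 1.21 ± 0.23 in invasive carcinoma (adjusted p = 0.00019). Dysplasia was below hyperplasia by -0.58 ± 0.16 (adjusted p = 0.031), a call lost in 10 of 15 fits without 1 sample. Its exons overlap those of Polg on the opposite strand over 16.0% of their length.

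Fancd2 had 3.31, 3.10 and 3.65 CPM in normal tissue, 5.29 to 7.01 CPM (median 6.26) in hyperplasia, 3.71 to 5.89 (median 4.80) in dysplasia, 4.07 to 6.43 (median 4.67) in carcinoma in situ and 4.34 to 7.57 (median 5.77) in invasive carcinoma. All 27 samples lay above the normal ones, with B02 at 3.71 CPM the nearest. Fancd2 had a log2 fold change of 0.91 ± 0.17 in hyperplasia (adjusted p = 0.00051), 0.50 ± 0.17 in dysplasia (adjusted p = 0.027) and 0.76 ± 0.17 in invasive carcinoma (adjusted p = 0.00072), and the dysplasia call was lost without D01, D02 or B05. Fancm, the helicase that recruits the core complex, was called in invasive carcinoma alone, at 0.38 ± 0.13 (adjusted p = 0.020), lost without C12, D02 or D03. Fancb, a core subunit, was not called, with log2 fold changes from -0.20 to 0.01.

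Both mismatch repair genes were higher than in normal tissue at every stage. Exo1, the exonuclease that removes the strand holding a mismatch and also trims broken ends, had 1.63, 1.52 and 2.07 CPM in normal tissue. It ran from 3.09 to 5.99 CPM (median 4.86) in hyperplasia, from 3.11 to 5.25 (median 4.10) in dysplasia, from 3.06 to 5.58 (median 4.77) in carcinoma in situ and from 3.29 to 6.34 (median 4.91) in invasive carcinoma. No sample overlapped the normal ones, and the log2 fold change of Exo1 lay between 1.22 ± 0.23 in dysplasia (adjusted p = 0.00058) and 1.45 ± 0.23 in invasive carcinoma (adjusted p = 3.4e-05). Msh6, a subunit of the complex that recognises base mismatches, had 17.2, 17.2 and 18.7 CPM in normal tissue. It ran from 27.4 to 35.3 CPM (median 29.4) in hyperplasia, from 24.7 to 32.0 (median 27.1) in dysplasia, from 24.1 to 47.5 (median 25.9) in carcinoma in situ and from 24.8 to 40.1 (median 29.2) in invasive carcinoma. The lowest of those 27 samples, at 24.1 CPM, was above the highest normal one. Msh6 had a log2 fold change of 0.79 ± 0.16 in hyperplasia (adjusted p = 0.0014) and 0.78 ± 0.16 in invasive carcinoma (adjusted p = 0.00045), and every call of both genes against normal tissue held without each sample.

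Among the 6 checkpoint genes, the effector kinase genes Chek1 and Chek2 and the activator gene Topbp1 were called higher at 2 or more stages, the sensor kinase gene Atm at 1, and the sensor kinase gene Atr and its partner Atrip at none. The route had 2 genes called higher in hyperplasia and 3 at each later stage, with none lower.

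Chek1, the kinase that restrains replication when forks stall, had 1.57, 1.58 and 2.02 CPM in normal tissue. It ran from 2.91 to 5.04 CPM (median 3.596) in hyperplasia, from 2.32 to 4.50 (median 3.98) in dysplasia, from 2.88 to 5.28 (median 4.46) in carcinoma in situ and from 2.92 to 5.96 (median 4.24) in invasive carcinoma. All 27 samples lay above the normal ones. The log2 fold change of Chek1 was 1.08 ± 0.22 (adjusted p = 0.0017), 1.11 ± 0.23 (adjusted p = 0.0013), 1.32 ± 0.23 (adjusted p = 0.00015) and 1.35 ± 0.23 (adjusted p = 6.5e-05) at the successive stages, and each call held without each sample.

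Chek2, the kinase that acts on breaks, was called higher in the carcinoma stages. Its level was 6.29, 8.56 and 8.53 CPM in normal tissue, 9.44 to 12.1 CPM (median 10.8) in hyperplasia and 9.02 to 13.2 CPM (median 10.7) in dysplasia. Carcinoma in situ ran from 11.01 to 23.5 CPM (median 14.7) and invasive carcinoma from 11.3 to 20.2 CPM (median 14.8). The lowest sample outside normal tissue, B04 at 9.02 CPM, was above the normal range. Against normal tissue, Chek2 had a log2 fold change of 0.48 ± 0.18 in hyperplasia (adjusted p = 0.066) and dysplasia (adjusted p = 0.052), then 0.99 ± 0.19 in carcinoma in situ (adjusted p = 0.00034) and 0.95 ± 0.19 in invasive carcinoma (adjusted p = 0.00024). Between dysplasia and carcinoma in situ Chek2 differed by 0.51 ± 0.14 (adjusted p = 0.032), with 4 of 6 samples above every dysplasia sample, and that call was lost in 8 of 13 fits without 1 sample. From hyperplasia to invasive carcinoma it differed by 0.47 ± 0.14 (adjusted p = 0.0080), which held without each sample.

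Topbp1 was the most abundant of the 3, at 37.1, 31.0 and 33.0 CPM in normal tissue. It ran from 42.4 to 51.1 CPM (median 46.0) in hyperplasia, from 36.5 to 57.1 (median 47.8) in dysplasia, from 41.8 to 62.9 (median 52.1) in carcinoma in situ and from 43.1 to 67.6 (median 60.8) in invasive carcinoma. Only 1 dysplasia sample fell within the normal range. In edgeR's fit Topbp1 had a log2 fold change of 0.46 ± 0.13 in hyperplasia (adjusted p = 0.015), lost without D02 or D03, and 0.79 ± 0.13 in invasive carcinoma (adjusted p = 5.4e-05). Atm was called in dysplasia alone, at 0.42 ± 0.14 (adjusted p = 0.031), lost without D01 or D02. Atr and Atrip were not called in any comparison, with log2 fold changes against normal tissue of 0.18 to 0.27 for Atr and -0.19 to -0.08 for Atrip.

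**Figure D2:**
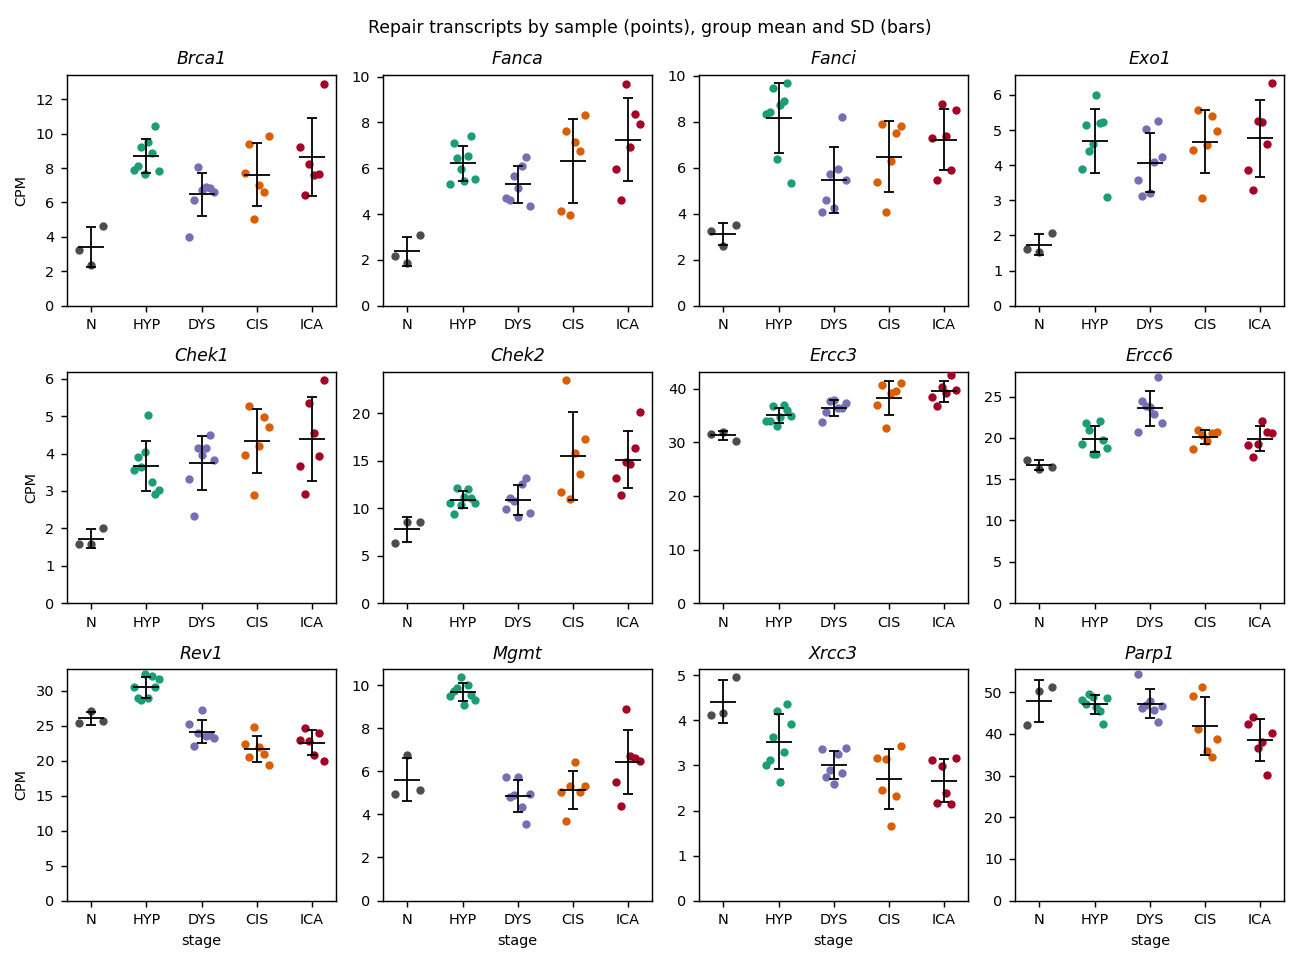
CPM of 12 repair genes in each of the 30 samples (points), with the group mean and SD (bars), for normal tissue (N, n = 3), hyperplasia (HYP, n = 8), dysplasia (DYS, n = 7), carcinoma in situ (CIS, n = 6) and invasive carcinoma (ICA, n = 6); each vertical axis starts at 0. Fanca, Fanci, Exo1, Chek1, Chek2, Ercc3 and Ercc6 lie above the normal samples in all 27 others. Rev1 and Mgmt peak in hyperplasia, Ercc6 in dysplasia, and Xrcc3 declines.

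Base excision and single-strand break repair, the route for oxidised bases and nicks, had 0 of 5 members called in hyperplasia or dysplasia by edgeR's test, with 0 and 2 at an unadjusted p under 0.05. Of 16 further genes of the route on the wider list, 3 were called higher in hyperplasia, and 4 higher and 2 lower in dysplasia. Apex1, the endonuclease that cuts at lost bases, had 24.4, 26.5 and 23.2 CPM in normal tissue. It ran from 24.6 to 31.3 CPM (median 29.5) in hyperplasia, from 24.9 to 33.3 (median 31.7) in dysplasia, from 25.2 to 48.2 (median 36.0) in carcinoma in situ and from 29.8 to 40.5 (median 34.7) in invasive carcinoma. All 6 invasive samples lay above the normal ones, as did 5 of 6 of carcinoma in situ. Apex1 had a log2 fold change of 0.56 ± 0.13 in carcinoma in situ (adjusted p = 0.0018) and 0.52 ± 0.13 in invasive carcinoma (adjusted p = 0.0019). An exonic overlap with Pip4p1 on the opposite strand covers 61.7% of its length, so its counts are uncertain if the counting ignored strand.

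Parp1, which detects single-strand breaks, went the other way. Its level was 42.1, 50.4 and 51.2 CPM in normal tissue, 42.3 to 49.6 CPM (median 47.7) in hyperplasia, 42.9 to 54.2 (median 46.8) in dysplasia, 34.4 to 51.3 (median 40.0) in carcinoma in situ and 30.1 to 44.1 (median 39.1) in invasive carcinoma. The groups of Parp1 overlapped, with 4 of 6 invasive samples below every normal one. The log2 fold change in invasive carcinoma was -0.31 ± 0.11 against normal tissue (adjusted p = 0.019), lost without D02 or D03, and -0.29 ± 0.08 against hyperplasia (adjusted p = 0.0083), which held without each sample. Ogg1, Mutyh and Xrcc1 were not called in any comparison. Ogg1, the glycosylase for oxidised guanine, was 5.47, 4.67 and 4.88 CPM in normal tissue and averaged 5.55 ± 0.87 CPM in invasive carcinoma, a log2 fold change of 0.15 ± 0.13 (adjusted p = 0.36).

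Mgmt, which encodes the protein that pulls alkyl groups directly off guanine, was highest in hyperplasia. The normal samples had 4.93, 6.76 and 5.14 CPM. Hyperplasia ran from 9.07 to 10.4 CPM (median 9.63), and all 8 of its samples lay above all 22 others, the nearest being C06 at 8.89 CPM. Dysplasia ran from 3.55 to 5.72 CPM (median 4.91), carcinoma in situ from 3.68 to 6.44 (median 5.17) and invasive carcinoma from 4.40 to 8.89 (median 6.55), all overlapping normal tissue. Mgmt had a log2 fold change of 0.79 ± 0.17 from normal tissue to hyperplasia (adjusted p = 0.0020) and -0.995 ± 0.12 from hyperplasia to dysplasia (adjusted p = 5.6e-06). Invasive carcinoma was below hyperplasia by -0.59 ± 0.13 (adjusted p = 0.00087), and these 3 calls held without each sample in turn.

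Between successive stages few of the 45 differed. Dysplasia against hyperplasia had 2 higher, Ercc6 and Ddb1, and 4 lower, Rev1, Fancd2, Fanci and Mgmt, beside 2.99% and 2.19% of all genes, and 3 in all without A06, B03 or B04. With the skeletal muscle score in the fit, 0 were called higher and 8 lower, of which 4 were among the 6, so both higher calls were lost. All-gene calls went from 914 to 582. All 9 members of homologous recombination had a negative log2 fold change in that step, from -0.45 to -0.14, and 6 had an unadjusted p under 0.05 in edgeR's test, though none passed adjustment. Among all 17638 genes, 3696 had an unadjusted p under 0.05 there. Of 16 further recombination genes on the wider list, 4 had a positive log2 fold change, and the median was -0.07. Of those 16, 4 had an unadjusted p under 0.05 and 1 was called lower. The proliferation list had 0 genes called higher and 2 lower in the same step, with a median of -0.19. Carcinoma in situ against dysplasia had Chek2 higher and Ercc6 and Rev3l lower, beside 2.99% and 2.47% of all genes, and 0 to 5 called without 1 sample. Invasive carcinoma against carcinoma in situ had 0 genes called among all 17638 (0%) in edgeR's test, and 1259 genes and 1 of the 45 had an unadjusted p under 0.05. DESeq2 and limma-voom also called 0 of the 45 there, and the log2 fold changes of the 45 ran from -0.17 to 0.33.

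Invasive carcinoma was also set against hyperplasia. Of the 45, 8 were higher and 5 lower, beside 19.1% and 19.2% of all genes. The 8 were Ercc3, Ercc8, Rad23b, Ddb1, Gtf2h1, Chek2, Topbp1 and Apex1, of which 5 belong to nucleotide excision repair. Of 16 further excision repair genes on the wider list, 2 were called higher and 3 lower, with a median log2 fold change of -0.05. The 5 members called lower were Rev1, Xrcc2, Xrcc3, Parp1 and Mgmt. The calls of Ercc8, Ddb1, Xrcc2 and Xrcc3 were each lost without any 1 of 7 to 10 samples, and that of Apex1 without C09. With the skeletal muscle score in the fit, 0 of the 45 were called higher and 3 lower, so all 8 higher calls were lost. All-gene calls went from 6768 to 2205. Brca1, Rad54l, Fanca, Fanci, Exo1, Chek1 and Msh6 were not called in this comparison, with log2 fold changes from -0.18 for Fanci to 0.26 ± 0.16 for Chek1. By group mean, 20 of the 45 genes were highest in invasive carcinoma, 10 in hyperplasia, 6 in dysplasia, 5 in normal tissue and 4 in carcinoma in situ.

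**Figure D3:**
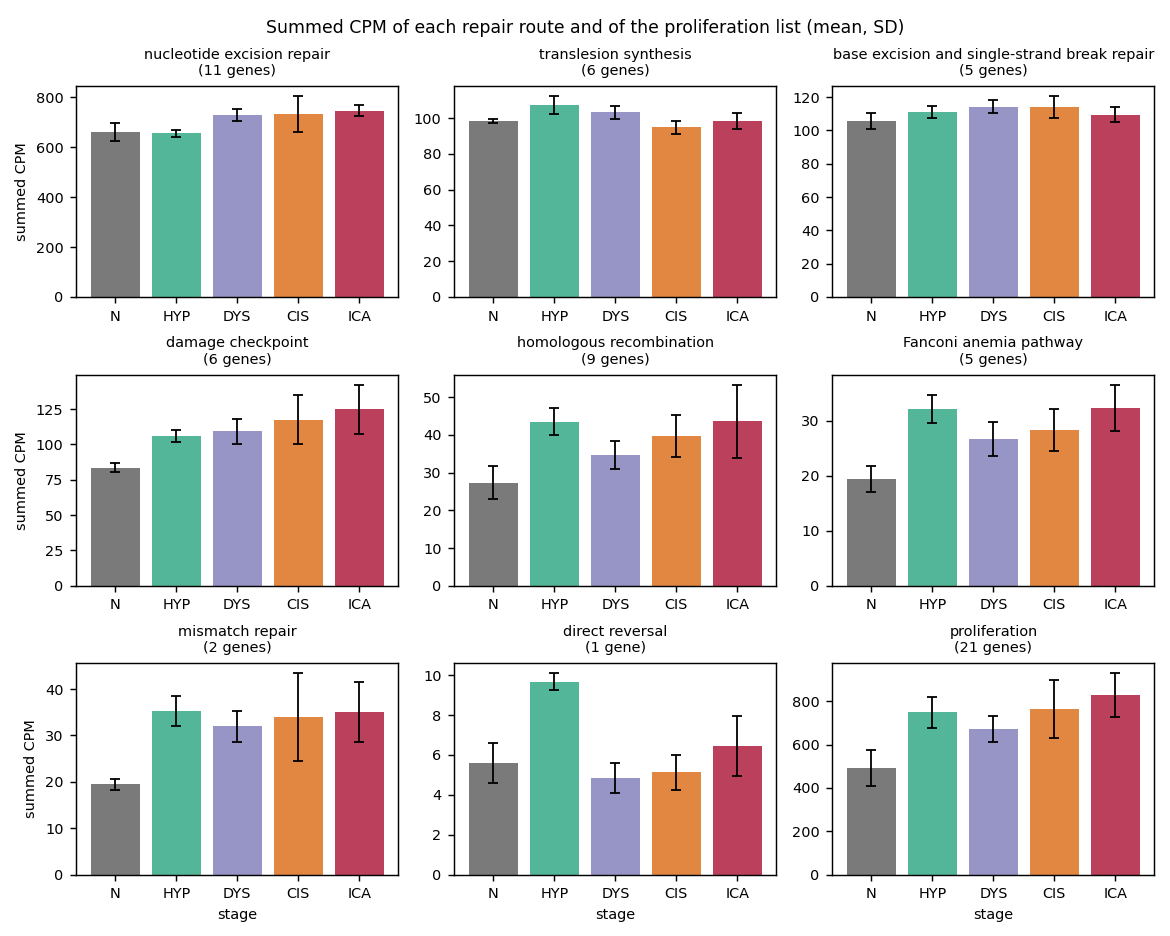
Summed CPM of the genes of each repair route and of the 21 proliferation genes (bars, group mean; whiskers, SD) in normal tissue (N, n = 3), hyperplasia (HYP, n = 8), dysplasia (DYS, n = 7), carcinoma in situ (CIS, n = 6) and invasive carcinoma (ICA, n = 6). The summed levels of homologous recombination and of the Fanconi pathway are 27.4 and 19.4 CPM in normal tissue and 43.5 and 32.1 CPM in hyperplasia, while nucleotide excision repair stays between 656 and 746 CPM.

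Summed over their genes, the routes kept different profiles. Homologous recombination stood at 27.4 ± 4.3 CPM in normal tissue, 43.5 ± 3.6 at hyperplasia, 34.6 ± 3.6 at dysplasia, then 39.7 ± 5.6 in carcinoma in situ and 43.6 ± 9.7 for invasive carcinoma. The Fanconi pathway stood at 19.4 ± 2.3, 32.1 ± 2.5, 26.7 ± 3.1, 28.3 ± 3.9 and 32.4 ± 4.2 CPM in the same order. In both routes the mean was lower in dysplasia than in hyperplasia and carcinoma, as it was for the proliferation list. The mean checkpoint sum was higher at each successive stage, from 83.6 ± 3.0 to 125 ± 17 CPM, of which Topbp1 is the largest part. Nucleotide excision repair, dominated by Ddb1 and Rad23b, stood at 661 ± 38 CPM in normal tissue and 746 ± 22 CPM in invasive carcinoma. Translesion synthesis was highest in hyperplasia, at 107 ± 5.2 CPM against 98.3 ± 0.97 CPM in normal tissue. The difference between routes was not tested.

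Because proliferation genes moved with stage, each repair gene was also related to the proliferation score among samples of the same stage. The score is the mean standardised log2 CPM of the 21 proliferation genes, and the slope is the log2 change of a gene per unit of the score with stage in the model. Of the 45, 19 had a higher level with a higher score (42.2%) and 1 a lower one, beside 10.3% and 13.5% of all genes. Of the 19, 18 also differed across the 5 stages, whereas 8 genes that differed across stages had no slope called. These slopes are relations within these samples and share each library's depth and tissue content. With the skeletal muscle score also in the fit, 9 of the 45 were called, all higher, beside 5.08% of all genes. Without that score 20 of the 45 were called, beside 23.8% of all genes.

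The largest slopes were those of Bard1, Rad54l and Fanci. Bard1 had 0.57 ± 0.09 (adjusted p = 0.00011), Rad54l 0.45 ± 0.10 (adjusted p = 0.0023), Fanci 0.45 ± 0.07 (adjusted p = 0.00022) and Brca1 0.44 ± 0.07 (adjusted p = 0.00019). Exo1 had 0.44 ± 0.07 (adjusted p = 0.00022), Rad18 0.43 ± 0.08 (adjusted p = 0.00059), Fanca 0.43 ± 0.08 (adjusted p = 0.00083) and Chek1 0.38 ± 0.09 (adjusted p = 0.0032). By route, the calls were 5 of 9 in homologous recombination, 2 of 5 in the Fanconi pathway, 3 of 6 in the checkpoint, 3 of 6 in translesion synthesis (Rad18 and Polh higher, Rev1 lower), 2 of 2 in mismatch repair, 4 of 11 in nucleotide excision repair and 1 of 5 in base excision repair. Beside these stand the 10.3% of all genes called higher and 13.5% called lower. The nucleotide excision slopes that were called were small, from 0.10 ± 0.03 for Ercc3 (adjusted p = 0.0077) to 0.21 ± 0.06 for Ercc8 (adjusted p = 0.020), both lost without C04. Rev1 was the gene with a lower slope, -0.11 ± 0.03 (adjusted p = 0.019), a call lost in 13 of 30 fits without 1 sample. On the wider list, slopes were called for 7 of 16 genes in homologous recombination, 1 of 9 in the Fanconi pathway and 5 of 14 in the checkpoint. They were called for 3 of 8 in translesion synthesis, 1 of 6 in mismatch repair, 2 of 16 in nucleotide excision repair and 4 of 16 in base excision repair. In each of those last routes except mismatch repair, 1 call was lower.

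Genes without a slope call included those with stage profiles of their own. Mgmt had a slope of -0.02 ± 0.09 (adjusted p = 0.89), Xrcc3 0.03 ± 0.09 (adjusted p = 0.83), Ercc6 0.06 ± 0.04 (adjusted p = 0.24) and Ercc2 -0.03 ± 0.05 (adjusted p = 0.68). With the proliferation score in the fit, Mgmt kept its hyperplasia call at 0.83 and Rev1 its own at 0.42, and Ercc2, Ercc6 and Exo1 were those called in dysplasia. E2F-type promoter letters were present in 11 of 17 promoters of genes with a higher slope (64.7%) and in 7 of 22 of the others (31.8%). CCAAT was present in 9 of the 17 (52.9%) and 14 of the 22 (63.6%), and TTTGAA or TTCGAA in 2 (11.8%) and 1 (4.5%).

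**Figure D4:**
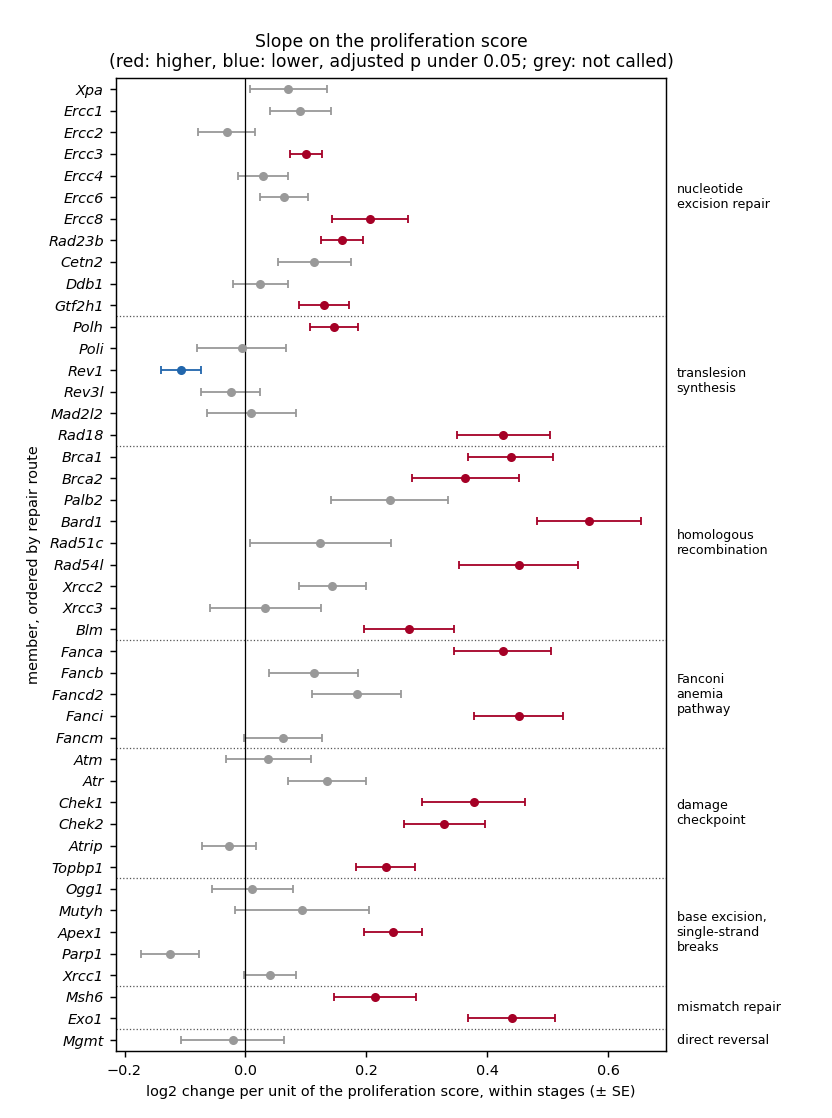
Slope of each repair gene on the proliferation score among samples of the same stage (points, log2 change per unit of the score; bars, SE), ordered by route, from edgeR's fit of all 30 samples with stage in the model. Bard1, Rad54l, Brca1, Fanca, Fanci, Exo1, Chek1 and Rad18 have positive slopes, up to 0.57 for Bard1, and the lowest are Parp1, at -0.12 and not called, and Rev1, at -0.11.

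A wider list of 96 genes of the same pathways, and of end joining, was counted for context; all 96 were tested. It had 16 called higher and 3 lower in hyperplasia, 14 and 9 in dysplasia, 25 and 8 in carcinoma in situ and 32 and 9 in invasive carcinoma, and 38 (39.6%) differed across the 5 stages. The shares of all genes given above for these comparisons apply here too, and the 39.6% lies below the 53.2% of all genes. Clspn, the adaptor between ATR and CHK1, had a log2 fold change of 1.195 ± 0.20 from normal tissue to hyperplasia (adjusted p = 0.00020). The ligase gene Lig1 stood at 0.89 ± 0.15 there (adjusted p = 0.00021), and the flap nuclease gene Fen1 at 0.56 ± 0.15 (adjusted p = 0.015).

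Polk, a translesion polymerase known to bypass bulky guanine adducts, averaged 7.09 ± 0.26 CPM in normal tissue, 12.3 ± 1.3 in hyperplasia, 7.85 ± 0.22 with dysplasia, then 7.15 ± 0.89 in carcinoma in situ and 8.55 ± 2.0 for invasive carcinoma. Polk had a log2 fold change of 0.80 ± 0.13 from normal tissue to hyperplasia (adjusted p = 0.00021) and -0.65 ± 0.10 from hyperplasia to dysplasia (adjusted p = 0.00016), with a slope on the proliferation score of -0.01 ± 0.07 (adjusted p = 0.92). Ercc5, the XPG incision nuclease, rose by 0.25 ± 0.08 in hyperplasia (adjusted p = 0.043) and stood -0.37 ± 0.06 lower in dysplasia than in hyperplasia (adjusted p = 0.00070). Ung, the uracil glycosylase, declined to -1.05 ± 0.15 in invasive carcinoma (adjusted p = 1.1e-05), and Ube2b, a ubiquitin conjugating enzyme that works with RAD18, to -0.72 ± 0.13 (adjusted p = 9.0e-05). Ube2b averaged 320 ± 35 CPM in normal tissue, and the fall of skeletal muscle markers ran beside it; their part in the result was not tested. H2afx, the histone marked at breaks, rose to 0.75 ± 0.15 in invasive carcinoma (adjusted p = 0.00038), and Tdg, a thymine glycosylase, to 0.66 ± 0.12 (adjusted p = 0.00011). Of the 9 end joining genes, 1 was called higher in hyperplasia and 2 in invasive carcinoma, with Dclre1c, the Artemis nuclease, at 0.39 ± 0.14 there (adjusted p = 0.028).

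Divided by exonic length, levels over all samples ranged widely among the 45. On the scale of mean CPM per kilobase, Ddb1 stood at 49.0, Rad23b at 36.6 and Apex1 at 22.2, at percentiles 94.8, 93.1 and 88.3 of the tested genes. At the other end stood Brca2 at 0.363, Palb2 at 0.404 and Rad51c at 0.407, between percentiles 14.8 and 16.3. Genes with large fold changes were among the scarcer ones. Fanca stood at 0.667, Rad54l at 0.602 and Exo1 at 0.506 CPM per kilobase. Of the 45, 18 share exonic bases with a gene on the opposite strand, 7 of them over more than 10% of their exonic length, and Atrip shares 16.0% with Trex1 on its own strand.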

How the data were processed

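Libraries of 30 mouse oral samples were made with a kit for mRNA that keeps strand, per the labels' protocols. The submitters' processing notes name cutadapt 2.4, STAR 2.7.2a and the genome GRCm38. How reads were counted, with which strand setting and annotation release, is not given in the sources used here. The values the authors deposited are raw read counts, 1 row per Ensembl gene, and their totals differ between samples. Of 55487 identifiers, 55227 (99.53%) matched GENCODE M21 without the version, which gave symbols, positions and exonic lengths.

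The 45 genes, the wider list of 96 and the marker lists were chosen with earlier results of these data known. The labelled pathological stage defined the groups, and all 30 samples entered. edgeR 4.0.16 (R 4.3.3) was run with TMM factors (0.892 to 1.057), its default expression filter, 1 mean per stage and robust quasi-likelihood dispersion over all 30 samples (common dispersion 0.0576). Tests were two-sided, with Benjamini-Hochberg adjustment over all 17638 genes within each of 8 comparisons, 1 test across stages and 1 of the proliferation slope, and genes were called where the adjusted p was under 0.05. SEs are the log2 fold change divided by the root of the F statistic. In each route up to 3 members with the smallest p across stages are described by sample, and up to 3 wider genes are named; 1 such gene is not reported here. Intervals of counting error are not printed; group SDs include it.

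The results were recomputed with RLE or upper-quartile factors, without the filter, with DESeq2 1.42.0, with limma-voom with sample weights (limma 3.58.1), with muscle, salivary or proliferation scores as covariates, on the 2 groups alone, at the stricter threshold of 0.01, with the code number as a replicate block and without each sample. Leaving out D01, B01 and C12, which stood apart in an earlier account of these data, was added after the data were seen. Figures and promoter searches used matplotlib 3.10.9, numpy 2.4.6 and pandas 2.3.3 under Python 3.11.15.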

Additional observations from a re-analysis of the deposited data

Results flagged for a closer look

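Of 180 sets of values, each 1 repair gene in 1 of the 4 groups other than normal tissue, 11 held a sample whose gap to the next exceeded Dixon's 95% critical value, which chance passes in about 1 in 20 sets. Normal tissue, with 3 samples, was not checked. Invasive carcinoma sample C12 was high for Atm at 26.7 CPM (the others 13.2 to 17.6), for Blm at 10.2 CPM (5.76 to 7.23) and for Fancm at 8.56 CPM (6.21 to 7.04). Carcinoma in situ sample C02 was high for Msh6 at 47.5 CPM (24.1 to 27.0) and for Atr at 25.5 CPM (15.4 to 18.5). Dysplasia sample B01 was low for Rad23b at 186.0 CPM (204 to 218) and for Fancb at 3.32 CPM (4.41 to 5.22). The other 4 were Ogg1 at 6.85 CPM in C07 (5.23 to 5.45) and Mutyh at 2.88 CPM in C10 (1.79 to 2.16), both carcinoma in situ and high, Polh at 27.6 CPM in hyperplasia sample A05 (20.2 to 23.6), and Palb2 at 2.17 CPM in invasive carcinoma sample C05 (3.46 to 4.14), which was low.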

How the results depend on the processing

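With 3 normal samples, 1 of them can decide a call. Without each sample in turn, the members called ran from 9 to 16 in hyperplasia against normal tissue, from 5 to 17 for dysplasia, from 13 to 25 for carcinoma in situ and from 20 to 28 for invasive carcinoma, the lowest always without D02. Without D02, 5.14%, 7.11%, 23.5% and 34% of all genes were called, beside 14.3%, 25.7%, 37.6% and 46.1% with all samples. The members called ran from 3 (without A06, B03 or B04) to 6 for dysplasia against hyperplasia and from 0 to 5 for carcinoma in situ against dysplasia. The share of all genes called in those fits ran from 2.88% to 8.46% and from 0.932% to 12.5%. At an adjusted p under 0.01, the members called numbered 9 in hyperplasia, 9 in dysplasia and 15 in carcinoma in situ against normal tissue, 2 for dysplasia against hyperplasia, 0 for carcinoma in situ against dysplasia and 7 for invasive carcinoma against hyperplasia. Of all genes, 5.6%, 11.4%, 22.5%, 1.71%, 0.352% and 22.7% passed that threshold in the same order. With the muscle score as a covariate the members called numbered 13 for hyperplasia, 2 for dysplasia, 8 for carcinoma in situ and 7 for invasive carcinoma against normal tissue. That fit called 3 for invasive carcinoma against hyperplasia, all lower, and 9 for the slope. Of all genes it called 10.1%, 3.49%, 10.8%, 8.88%, 12.5% and 5.08% in the same order. With the proliferation score the members called numbered 2 in hyperplasia, 3 in dysplasia, 0 in each carcinoma stage, 0 for carcinoma in situ against dysplasia and 13 across the 5 stages. Of all genes it called 3.43%, 4.42%, 2.18%, 1.35%, 0.839% and 34.9% in the same order. With no filter on low counts, the members called numbered 3 for dysplasia against hyperplasia, 0 for carcinoma in situ against dysplasia and 7 for invasive carcinoma against hyperplasia. That fit called 1.39%, 0.959% and 16.2% of all genes. limma-voom called 10 for dysplasia against hyperplasia, upper-quartile factors called 1 for carcinoma in situ against dysplasia, and the fit of only those 2 groups called 0. All-gene shares in these fits were 20.4%, 6.1% and 1.23%. The cause was not tested.

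Whether samples with the same code number belong together is not stated. Among 31 pairs with the same number, correlations of their deviations from the group means ran from -0.564 to 0.512, and 11 exceeded 0.1. Pairs with different numbers were not examined, so these values cannot decide whether the numbers pair the samples. With the code number as a replicate block, 13 members were called in invasive carcinoma against normal tissue and 1 for carcinoma in situ against dysplasia. That fit called 1, a lower call, for invasive carcinoma against hyperplasia and 10 for the slope. Of all genes it called 21.3%, 1.6%, 9.55% and 5.85% in the same order, beside 46.1%, 5.47%, 38.4% and 23.8% without the block. Leaving out D01, B01 and C12 together gave 14, 15, 22 and 22 members called against normal tissue, beside 17.5%, 29.1%, 35.8% and 38.8% of all genes.

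Every reversed sign came from the proliferation covariate. The log2 fold change against normal tissue then became -0.13 for Rad18 in hyperplasia. In carcinoma in situ it became -0.025 for Rad23b, -0.11 for Rad18, -0.23 for Bard1 and -0.005 for Blm. In invasive carcinoma it became -0.003 for Rad23b, 0.039 for Rev1, -0.14 for Rad18, -0.020 for Brca2, -0.36 for Bard1 and -0.060 for Apex1. Upper-quartile factors moved the share of higher calls among all genes from 57.7% to 40.9% for dysplasia against hyperplasia and from 54.8% to 67.8% for carcinoma in situ against dysplasia.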
